A study of Zea mays with 6 samples.

Results

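In very young maize ears, 262 genes stood apart in the RHW1 knockout line while the overexpression line stayed near wild type: 96 were higher and 166 lower in the knockout. They were chosen by measured read counts, scaled as CPM (the reads of a gene in every 1000000 reads of its library), from 45578 genes in the count table, of which 19585 had a mean of at least 2 CPM over the 6 libraries. A gene was kept if both knockout libraries lay above, or both below, all 4 libraries of the other genotypes. The mean of the knockout also had to be at least 1.3-fold from the means of wild type and of overexpression, and the ratio of overexpression to wild type had to lie between 0.83 and 1.2. These limits used every library of the study, so the levels and ratios below describe the members and carry no test.

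The libraries came from ears up to 0.5 cm long of 3 genotypes with 2 libraries each. These were wild type, the line rhw1-1, whose samples are titled crispr and labelled RHW1 knockout, and OE#1, labelled RHW1 overexpression. The labels give no inbred background, no promoter for the overexpressed gene and no description of the edit, and they do not say if replicate libraries were made from different plants. Each modified genotype was 1 line, so what RHW1 does and what else differs between the lines cannot be told apart. Spread between libraries may be technical, and in whole ears fewer cells of a type and less RNA per cell cannot be told apart. Total counts ran from 21094445 to 23999698, so that 2 CPM was 42.2 to 48.0 reads in a library.

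Husk leaves are the modified leaves that wrap the maize ear, and they form on the short side branch that carries it. In the title of the series, RHW1 and ZCN4 form 1 pathway that sets husk leaf width. The ZCN4 protein belongs to the family of TERMINAL FLOWER1, whose members are known in other plants for delaying or promoting the switch to flowering. Of the members, 261 carried Zm00001d identifiers and 1 an ENSRNA identifier of a non-coding gene, and 0 were microRNA genes. The reference table matched 0 identifiers of the first 2 kinds. Function, position and sequence were therefore not analysed here for any member, neither RHW1 nor ZCN4 was looked up, and the labels were not checked against the edited gene or against markers of ear tissue. At most 2 identifiers are printed in each direction, and the other members are given by rank.

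The condition that knockout libraries not overlap the others was met by far more genes than the size limits allowed. Both knockout libraries lay above all 4 others in 2697 of 19585 genes (13.8%), but only 125 of these also passed the 1.3-fold limits, and 96 of those lay in the window for overexpression over wild type. Both lay below all others in 1886 genes (9.63%), of which 235 passed the fold limits and 166 the window. Of the 29 candidate genes that the window removed on the higher side, 27 had overexpression below wild type and 2 had it above. On the lower side it removed 69, of which 57 had overexpression above wild type and 12 below. The genes it removed thus mostly had overexpression on the side of wild type away from the knockout. The fold limits favour that side. A gene with overexpression between wild type and the knockout needs a larger knockout fold over wild type to pass both. The split is therefore a description of what the limits let through. In 4 more genes on the higher side and 20 on the lower side the folds and the window were met but the libraries overlapped.

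Within the members, overexpression also lay more often on the far side of wild type. Its mean was below that of wild type in 59 of the 96 higher genes and above it in 37. In the 166 lower genes it was above wild type in 107 and below in 59. Over all 19585 genes it was below wild type in 10361 and above in 9224. The median ratio of overexpression to wild type was 0.981 in the higher genes, 1.04 in the lower genes and 0.989 over all genes. The window fixes how far these ratios can go. The knockout also had to clear both genotypes, which favours overexpression on the far side of wild type, so the counts and ratios are a description.

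Given the same limits with each genotype in turn as the one apart, the knockout and wild type gave lists of similar length and opposite balance. The knockout alone gave 96 higher and 166 lower genes. Wild type alone gave 164 higher and 89 lower, 253 in all. Overexpression alone gave 437 higher and 799 lower, 1236 in all. The lists share libraries, and the differences between their lengths were not tested.

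The 96 higher genes were mostly weakly expressed, and their folds were modest. Their summed level was 654.8 and 662.5 CPM in the wild-type libraries, 916.8 and 920.4 CPM in the knockout libraries and 639.5 and 650.3 CPM in the overexpression libraries. Both knockout libraries were thus nearly alike in the sum, and the other 4 lay close together. The median log2 ratio of the knockout was 0.48 over wild type and 0.52 over overexpression, beside medians of 0.01 and 0.03 over all 19585 genes. The smaller of both folds, which measures how far a gene stood from its nearer genotype, had a median of 1.35 and a maximum of 1.82. It reached 1.5 in 12 genes and 2 in 0 genes.

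**Figure D1:**
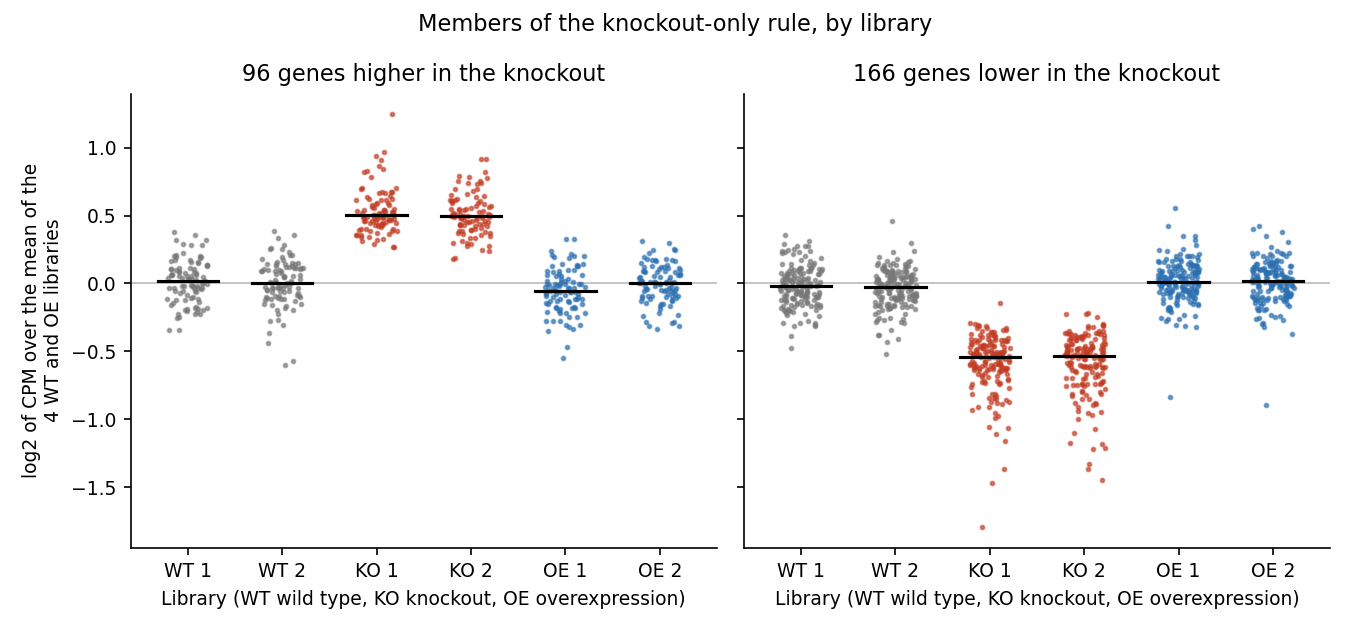
Each point is 1 member in 1 library, as the log2 of its CPM over its mean in the 4 wild-type and overexpression libraries; black bars are medians over the 96 higher genes (left) and 166 lower genes (right). The knockout libraries lie on 1 side of the others by construction, and among the lower genes 1 point in each overexpression library lies far below the rest, from Zm00001d034776 in replicate 2 and from the third-ranked lower gene in replicate 1.

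Among the higher genes, the one with the greatest smaller fold was Zm00001d015935. It had 1.60 and 2.17 CPM in wild type, 4.23 and 2.62 CPM in knockout libraries and 1.71 and 1.67 CPM in overexpression, which is 36 to 101 reads in a library. The knockout libraries were 1.62-fold apart, more than the 1.21-fold step from the lower of them to wild type replicate 2. Its knockout mean of 3.42 ± 1.14 CPM stood beside 1.88 ± 0.401 CPM in wild type and 1.69 ± 0.0282 CPM in overexpression (SD, n = 2).

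The most abundant higher gene, Zm00001d036917, was far more even. Its levels were 54.2 and 55.2 CPM in wild type, 69.4 and 74.1 CPM in knockout libraries and 54.6 and 55.3 CPM in overexpression. Wild type and overexpression overlapped, and the knockout libraries were the highest pair, 1.26-fold above the nearest other library and 1.07-fold from each other. The log2 ratio of the knockout was 0.39 over wild type and 0.39 over overexpression.

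The next higher genes by level had the same shape. The second had 42.2 and 46.8 CPM in wild type, 61.1 and 63.8 CPM in knockout libraries and 43.9 and 42.9 CPM in overexpression. The third had 36.5 and 39.0 CPM in wild type, 56.4 and 57.7 CPM in knockout libraries and 40.2 and 43.2 CPM in overexpression, so that overexpression lay a little above wild type, with a ratio of 1.103. In all 5 of the most abundant higher genes, at 21.5 to 60.5 CPM, the step from the knockout to the nearest other library was larger than the difference within any genotype. That held for 3 of the 10 higher genes with the greatest smaller fold (1.53 to 1.82), 9 of which had a mean under 5 CPM.

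The next higher genes by fold had lower levels than the most abundant ones. The second by fold had 4.76 and 6.77 CPM in wild type, 11.1 and 8.34 CPM in knockout libraries and 4.69 and 6.50 CPM in overexpression, with replicates 1.33-fold to 1.42-fold apart in every genotype. The third had 2.64 and 3.54 CPM in wild type, 4.90 and 5.46 CPM in knockout libraries and 3.08 and 3.08 CPM in overexpression, and had the widest step among the 96 genes, 1.39-fold. The member with an ENSRNA identifier, at 1.90 and 1.99 CPM in wild type, 3.02 and 2.71 CPM in knockout libraries and 2.04 and 2.33 CPM in overexpression, was near the low end of the list, with a smaller fold of 1.31.

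The 166 lower genes covered a wider range of level and size. Their summed level was 2560 and 2525 CPM in wild type, 1729 and 1740 CPM in knockout libraries and 2599 and 2590 CPM in overexpression. The median log2 ratio of the knockout was -0.50 over wild type and -0.58 over overexpression. The smaller fold had a median of 1.39 and a maximum of 3.04. It reached 1.5 in 37 genes and 2 in 4 genes.

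**Figure D2:**
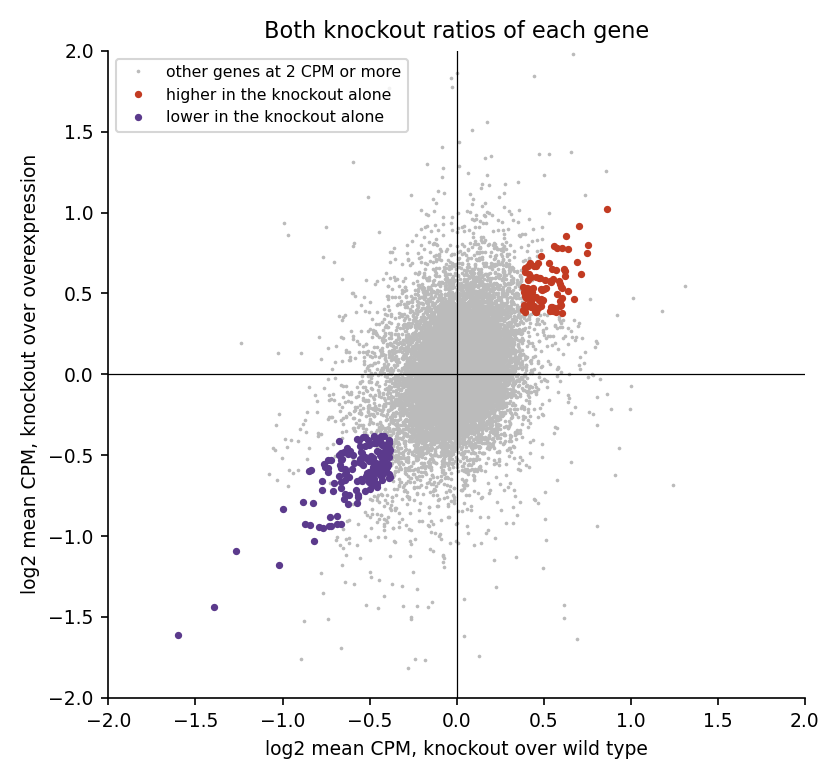
Each point is a gene with a mean of at least 2 CPM, placed by the log2 ratio of mean CPM in the knockout over wild type (x) and over overexpression (y); red and purple mark the higher and lower members, and 15 genes lie outside the axes. The straight inner edges of both coloured groups are the 1.3-fold limits, and only 4 lower members lie beyond a log2 value of -1 on both axes.

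Zm00001d034776 had the greatest smaller fold of all members, and its levels were uneven outside the knockout. It had 21.8 and 31.5 CPM in wild type, 7.71 and 9.83 CPM in knockout libraries and 39.2 and 14.4 CPM in overexpression. The overexpression libraries were 2.72-fold apart, and the lower of them stood 1.47-fold above the nearer knockout library. The log2 ratio of the knockout was -1.60 over wild type and -1.61 over overexpression. The third lower gene by fold varied in the reverse order of libraries, with 30.6 and 20.03 CPM in wild type, 10.7 and 10.3 CPM in knockout libraries and 13.4 and 31.5 CPM in overexpression. In both genes the similar means of wild type and overexpression thus rested on 1 high and 1 low overexpression library.

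The second lower gene by fold was weak but well separated. It had 2.81 and 2.21 CPM in wild type, 0.922 and 0.992 CPM in knockout libraries and 2.32 and 2.88 CPM in overexpression. Its step of 2.23-fold to the nearest other library was the widest of all 262 members, from 22 reads in each knockout library to 49 to 69 in the others. The fourth had 6.05 and 6.81 CPM in wild type, 2.64 and 3.70 CPM in knockout libraries and 8.68 and 5.67 CPM in overexpression, a step of 1.53-fold.

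The most abundant member in either direction was Zm00001d010840. It had 411.6 and 405.2 CPM in wild type, 234.5 and 254.4 CPM in knockout libraries and 373.3 and 370.5 CPM in overexpression, or 5594 to 9517 reads. The groups did not overlap, and overexpression lay between the knockout and wild type, at a ratio of 0.911 to wild type. The means were 408.4 ± 4.55, 244.4 ± 14.1 and 371.9 ± 2.02 CPM (SD, n = 2), and the log2 ratio of the knockout was -0.74 over wild type and -0.61 over overexpression. This gene alone made up 411.6 of the 2560 CPM summed over the lower genes in wild type replicate 1.

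**Figure D3:**
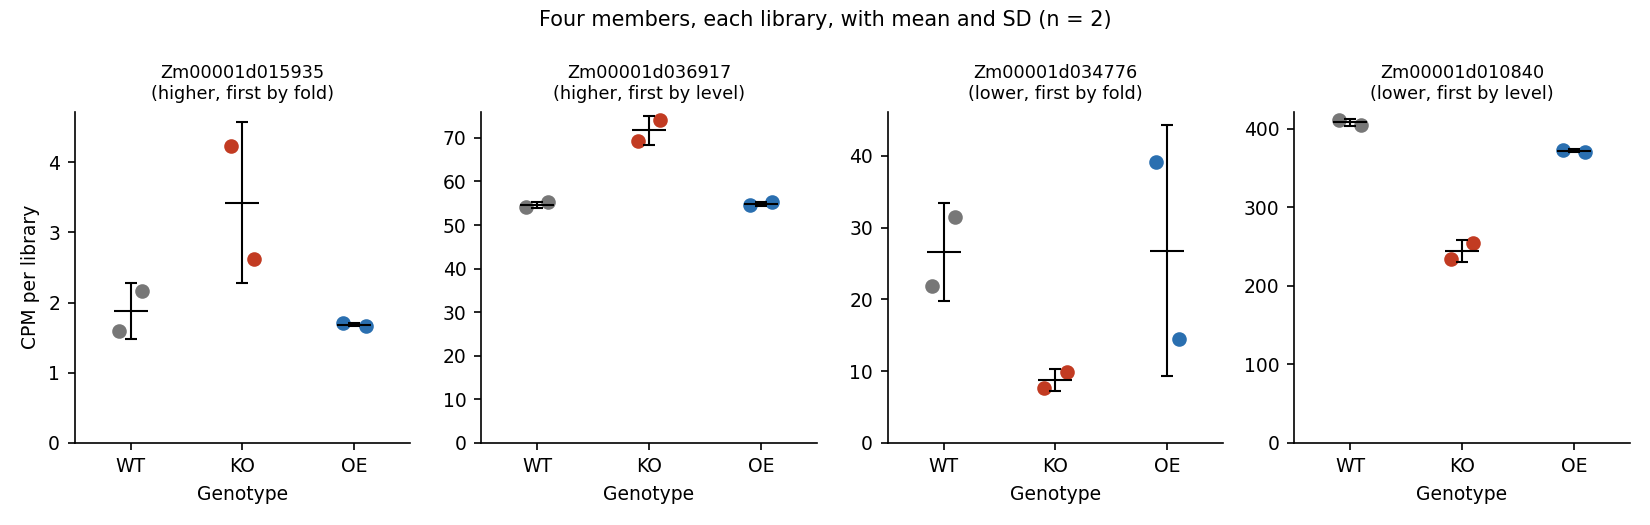
CPM of the first member by fold and the first by level in each direction: coloured points are libraries, and black bars are genotype means with SD (n = 2), on axes that start at 0. Replicates lie close together in Zm00001d036917 and Zm00001d010840, while the knockout of Zm00001d015935 and the overexpression of Zm00001d034776 are spread widely.

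The next lower genes by level were also even within genotypes. The second had 198.3 and 188.3 CPM in wild type, 146.7 and 140.1 CPM in knockout libraries and 206.5 and 204.5 CPM in overexpression. The third had 149.7 and 140.3 CPM in wild type, 99.3 and 106.2 CPM in knockout libraries and 162.8 and 157.8 CPM in overexpression, and both genes were highest in overexpression. The fourth had 92.3 and 91.5 CPM in wild type, 67.9 and 65.3 CPM in knockout libraries and 93.8 and 85.3 CPM in overexpression, which overlapped wild type. The fifth had 74.6 and 67.4 CPM in wild type, 48.4 and 48.5 CPM in knockout libraries and 64.5 and 70.7 CPM in overexpression. In all 5 of the most abundant lower genes, at 62.3 to 341.6 CPM, the step to the nearest other library was larger than the difference within any genotype, as it was in 5 of the 10 with the greatest smaller fold (1.73 to 3.04).

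Most members lay low in the range of expression. The median of the mean level was 5.16 CPM in the higher genes and 6.11 CPM in the lower genes, against 26.5 CPM over all 19585 genes. Of the 2209 genes between 2 and 5 CPM, 2.04% were higher members and 3.12% lower members. Of the 5854 genes from 5 to 20 CPM the shares were 0.786% and 1.28%, and of the 9078 genes from 20 to 100 CPM they were 0.0551% and 0.209%. Above 100 CPM, 3 of 2444 genes were members, all 3 lower. The share of genes that met the limits was thus lower at higher levels in both directions. Counting error relative to level is also larger at low levels, and its part in these shares was not tested.

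**Figure D4:**
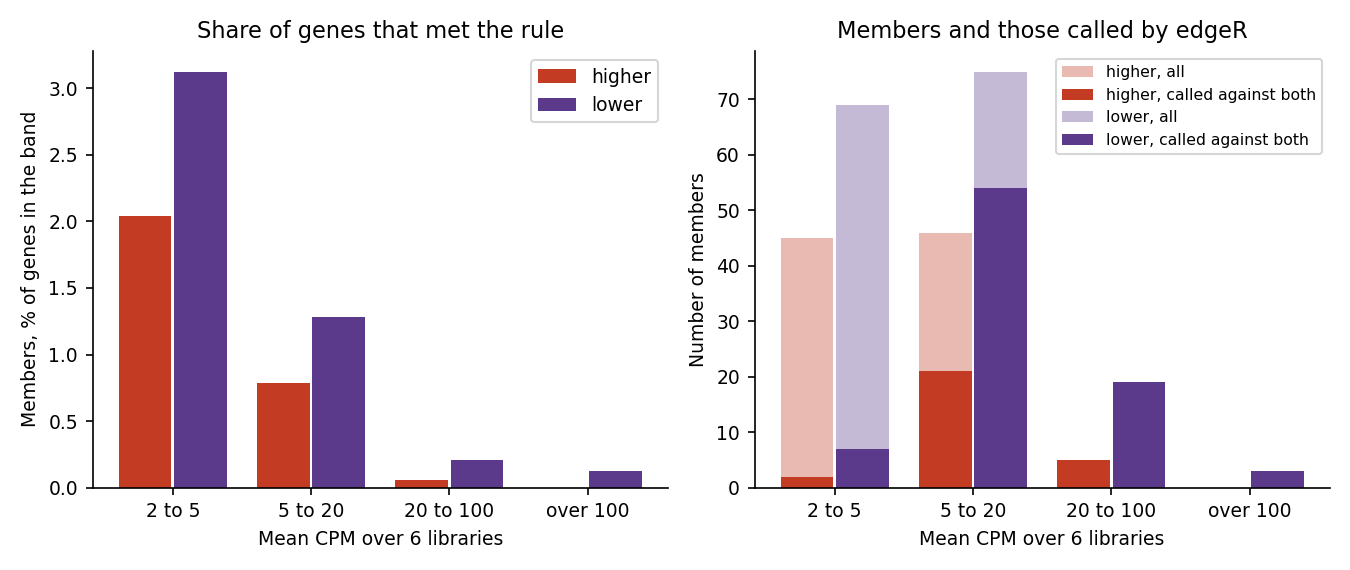
Left, the share of genes in each band of mean CPM that were higher (red) or lower (purple) members, in %; right, the number of members in each band (pale) and of those called against both other genotypes by edgeR (solid). Members are densest from 2 to 5 CPM, where 2 of 45 higher and 7 of 69 lower genes were called, and all 5 higher and 22 lower members above 20 CPM were called. Over all tested genes of any level, 1.37% were called higher and 1.88% lower against both, and shares of all genes within each band were not computed. The members were chosen on the same libraries, so the counts called support nothing.

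Replicates of the members were further apart than those of genes in general, but the comparison was not matched for level. The median level was 5.16 CPM in the higher and 6.11 CPM in the lower genes, against 26.5 CPM over all genes. The knockout libraries differed by a median of 1.112-fold in the higher genes and 1.13-fold in the lower genes, against 1.06-fold over all 19585 genes. The wild-type libraries differed by 1.146-fold and 1.109-fold, against 1.06-fold, and the overexpression libraries by 1.12-fold and 1.108-fold, against 1.06-fold. The step from the knockout to the nearest other library had a median of 1.198-fold in the higher genes and 1.22-fold in the lower genes. It was larger than the differences within all 3 genotypes in 38 of 96 higher and 80 of 166 lower genes.

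Both knockout libraries contributed alike. Knockout replicate 1 was the more extreme of its pair in 49 higher and 84 lower genes, and replicate 2 in 47 and 82. The nearest other library was wild type replicate 1 or 2 in 29 and 31 of the higher genes, and overexpression replicate 1 or 2 in 16 and 20. In the lower genes these counts were 49, 53, 31 and 33. The nearest library was thus more often a wild-type one in both directions. That goes with overexpression lying more often beyond wild type, which the fold limits favour, so it is no separate result. With each library left out in turn, 16 of the 96 higher and 42 of the 166 lower genes met the limits every time. Without knockout replicate 1 the limits were met by 163 higher and 243 lower genes, and without replicate 2 by 172 and 278; the knockout mean then rests on 1 library.

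The edgeR quasi-likelihood test was run on all 22947 genes that passed its count filter. All 262 members were tested. Of the 96 higher genes, 28 had an adjusted p under 0.05 against both wild type and overexpression, 35 against 1 of them and 33 against neither; over all tested genes, 1.37% were higher against both. Of the 166 lower genes, 83 were called against both, 33 against 1 and 50 against neither, and over all tested genes 1.88% were lower against both. The members were chosen on the same libraries, so these counts support nothing. The background of calls in either direction was 8.52% for the knockout against wild type, 26.7% for the knockout against overexpression and 29.2% for overexpression against wild type. In the last of these comparisons 0 higher and 5 lower members were called, so for 5 genes the overexpression line differed from wild type by the test although the ratio lay in the window. The 3 most abundant lower genes are among these 5, the first lower in overexpression than in wild type and the next 2 higher. Members called against both had median levels of 11.6 CPM (higher) and 12.6 CPM (lower), and the others 4.21 and 3.404 CPM. The same split by level was not computed over all tested genes, so it is not read as a trait of the members. Leaving out wild type replicate 1 left 5 higher and 48 lower members called, wild type replicate 2 left 13 and 58, knockout replicate 1 left 10 and 51, and knockout replicate 2 left 14 and 51. DESeq2 called 6 and 37. In each of these fits fewer of all tested genes were also called for the knockout against wild type, with DESeq2 986 beside 1954. Shares of all genes called against both were not computed for these fits, so the lower counts are no result about the members.

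Many genes lay near the limits. The 3 higher genes just inside the 1.3-fold limit had smaller folds of 1.3013 to 1.3036, and the 3 just outside had 1.2932 to 1.2983. For the lower genes the values were 1.3001 to 1.3036 inside and 1.298 to 1.2996 outside. A smaller fold under 1.4 was found in 65 higher and 86 lower members. Another 172 genes on the higher side and 175 on the lower side met every other condition with a smaller fold of 1.2 to 1.3, more than the 96 and 166 members.

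Among microRNA genes, which give rise to short RNAs that act on other transcripts and were the only ones with names, 4 reached 2 CPM and none met the limits. The precursor genes zma-MIR528a and zma-MIR408b, of families known for acting on transcripts of copper proteins, were higher than wild type in both lines and so lay outside the window. The gene zma-MIR528a had 3.42 and 3.94 CPM in wild type, 6.37 and 7.44 CPM in knockout libraries and 9.91 and 11.4 CPM in overexpression, and zma-MIR408b had 0.995 and 0.752, 1.89 and 2.26, and 3.27 and 3.38 CPM. In both the knockout lay between wild type and overexpression. The gene zma-MIR159a, of the family known for acting on GAMYB transcription factors, had 1.47 and 2.83 CPM in wild type, 1.76 and 2.44 CPM in knockout libraries and 2.75 and 1.83 CPM in overexpression. For zma-MIR168a, of the family known for acting on ARGONAUTE1, the values were 4.54 and 2.61 CPM, 2.64 and 3.74 CPM, and 3.75 and 2.71 CPM. In these 2 genes all genotypes overlapped.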

How the data were processed

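RNA-seq libraries of 6 ear samples were analysed from the table of raw gene counts that the authors deposited, with 1 column for each library and 0 columns left unused. Per the submitters' processing notes, the tools were StringTie, edgeR 3.32.1, HTSeq, HISAT2 2.1.0 and Trimmomatic 0.35, with no roles stated. Build, annotation and strand use are not given in the sources, so counts of overlapping or near-identical genes are uncertain. Members were found on CPM by column totals, without a pseudocount (Python 3.11.15, pandas 2.3.3). Members, limits and lists were chosen with earlier results of these data known. None of 35 gene lists, fixed by symbol or by words of a gene description, could be applied. By rule, the members to be described were the 10 with the greatest smaller fold and the 5 most abundant in each direction. The first of each is printed by identifier, several of the next with their levels and the rest in ranges and counts, and the ENSRNA member was added after its values were seen.

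For the background, genes were kept with filterByExpr (minimum count 10), scaled by TMM and compared between the 3 genotypes by the quasi-likelihood test of edgeR 4.0.16 in R 4.3.3, fitted once to the 6 libraries together. The Benjamini-Hochberg adjustment covered all genes tested, and genes were called under 0.05. The fit and the rule were tested on simulated data. Alternatives were TMM or DESeq2 scaling, other limits, RLE factors, no count filter, DESeq2 1.42.0, a replicate block and each library left out.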

Additional observations from a re-analysis of the deposited data

How the results depend on the processing

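The number of genes apart in the knockout depended on the limits more than on scaling. With TMM-scaled library sizes there were 86 higher and 179 lower genes, 84 and 163 of them members, and with DESeq2 size factors 87 and 177, 85 and 163 of them members. A fold limit of 1.2 gave 268 and 341 genes, a limit of 1.5 gave 12 and 37, and a floor of 5 CPM gave 51 and 97, since each only adds or removes genes. A floor of 1 CPM, a narrower window and allowing overlap kept both counts within 1.5 times. With 1 library left out there were 93 to 172 higher and 165 to 278 lower genes, with the highest counts when a knockout library was left out. Members called against both genotypes were then 5 to 24 higher and 48 to 74 lower. All genes called were 909 to 2129 for the knockout against wild type (909 and 1196 without wild type replicates 1 and 2, 1052 and 1267 without knockout replicates 1 and 2), 4335 to 6027 for the knockout against overexpression and 4823 to 6754 for overexpression against wild type, from totals of 1954, 6120 and 6698. DESeq2 called 986, 3946 and 4455 genes, and 6 higher and 37 lower members against both genotypes; the cause was not tested. Deviations of same-numbered libraries from their genotype means correlated at -0.00862, 0.00772 and -0.0139 between genotypes, so no shared deviation by replicate number was seen. Whether the libraries were made in pairs cannot be told from these values. Adding a replicate block left 1743, 5850 and 6465 genes and 23 higher and 83 lower members called. Shares of all genes called against both genotypes were not computed for any of these other fits. At 2 CPM a library holds 42.2 to 48.0 reads, so a 1.3-fold step in a weak gene rests on few reads.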
